A study of Enchytraeus crypticus with 54 samples.

Results

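The 150 brightest transcripts of control worms were followed across 18 groups of the soil annelid Enchytraeus crypticus kept in clean soil or exposed to copper. The array carried 43750 probes that were not controls, and 19499 of them (44.6%) had a signal significantly above background on all 54 arrays. The level of a probe was the log2 of its processed signal minus the median of the kept probes on the same array, so a level of 0 is the signal of the median probe and each unit is a doubling. The members are the 150 kept probes (0.769%) with the highest mean level over the 6 control arrays, and their rank from 1 to 150 is the order of that mean. The members were thus selected on the control levels, so the control levels and every difference from a control are given as description, without a test, and tests were made only between groups of exposed worms. Signals of different probes also depend on how well each probe hybridizes, so the ranks order brightness on the array rather than numbers of RNA molecules.

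Worms from laboratory culture were exposed as adults with a well developed clitellum, the glandular band that marks maturity. Each array held RNA from whole bodies of a pool of 20 worms, and each group had 3 such pools. Exposure lasted 3 days or 7 days without food in soil from the Hygum site in Denmark. Control 3d and Control 7d were kept in Hygum soil from the control area. The other 16 groups received copper as copper nitrate (CuNO3), nanoparticles (Cu-NPs), nanowires (Cu-NWires) or field aged copper of the site itself (Cu-Field). Each form was given at its EC20 and its EC50, the concentrations estimated to reduce reproduction by 20% and 50%, so forms were matched on effect and not on the amount of copper.

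In whole animals the most abundant messenger RNAs usually encode proteins of the ribosome, of muscle and the cytoskeleton, of mitochondrial respiration, and products that a few cell types secrete in bulk, such as digestive enzymes or the extracellular oxygen-binding globins of annelids. Transcripts of the ribosome, the cytoskeleton and mitochondrial respiration are made in nearly every cell, whereas those of muscle and secretory cells come from particular cell types. The probes are named after the assembled contig or the sequencing read they were designed from, and the files pair them with no gene names. For that reason no role is given to any member, the whole-body label could not be checked against marker genes, and whether several members read 1 transcript is not known. In RNA from whole bodies, fewer cells of a type and less RNA per cell cannot be told apart.

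The arrays differed in brightness, with a median signal of the kept probes between 35.94 and 143.3, and between 38.16% and 66.47% of the probes were well above background. Levels of replicate pools correlated with r between 0.882 and 0.99, and no pair of arrays was identical. None of the 8100 spots of the members was saturated and none failed to stand well above background, although their processed signals reached down to 37.5 where rank 10 was lowest. Of the 150 members, 68 (45.3%) were named after contigs and 82 after single reads, against 46.9% contigs among all kept probes. The arrays lay on 14 slides scanned on 2 days, and most groups were split over both. All arrays of CuNO3 EC50 7d and Cu-Field EC20 7d were scanned on the first day. Those of Cu-NWires EC50 3d and Cu-Field EC20 3d were all scanned on the second. Slide 2 held only Cu-Field arrays of 3 days, and replicates 2 and 3 of CuNO3 EC50 7d shared a slide, as did those of Cu-NPs EC50 3d. Copper group and slide or scan day thus cannot be fully told apart.

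In control worms, the probe of highest level was contig02249, with a mean level of 12.19 over 6 arrays. Its levels were 12.61, 12 and 12.75 at 3 days and 11.31, 11.64 and 12.81 at 7 days, so the days overlapped. The member of rank 2, GYUW2K402J1TIT, had levels of 12.35, 10.57 and 12.44 at 3 days and 11.08, 11.18 and 12.43 at 7 days. A single array of each day thus differed from the other 2 by more than 1 unit. The member of rank 3, contig18578, was steadier, with 11.98, 11.33 and 11.46 at 3 days and 11.28, 11.41 and 12.05 at 7 days. Rank 4, contig01799, had levels of 12, 11.05 and 11.72 at 3 days and 10.97, 11.23 and 11.3 at 7 days. Rank 5, contig08319, had 11.86, 11.34 and 11.91 at 3 days and 10.32, 10.75 and 11.84 at 7 days. Neighbours in this order differed by less than their spread: ranks 2 to 5 had means of 11.67, 11.59, 11.38 and 11.34 with SDs of 0.83, 0.34, 0.40 and 0.67 over the 6 arrays.

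Rank 150 was a line drawn through a dense order and not a gap. The last member, contig20924, had a mean control level of 8.342 ± 0.233 (SD, n = 6), and the first probe outside, contig03454, had 8.326 ± 0.443. Levels declined slowly along the ranks while the spread between control arrays was uneven, as the plot of the control levels shows. Ranking on the Control 3d arrays alone kept 125 of the 150 members, and ranking on Control 7d alone kept 134. Between the control days, the median difference of the members (7d minus 3d) was -0.38, against -0.07 for all kept probes, and 134 of 150 members had the lower mean at 7 days. These values describe the arrays that chose the members, and no test was made on them.

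**Figure D1:**
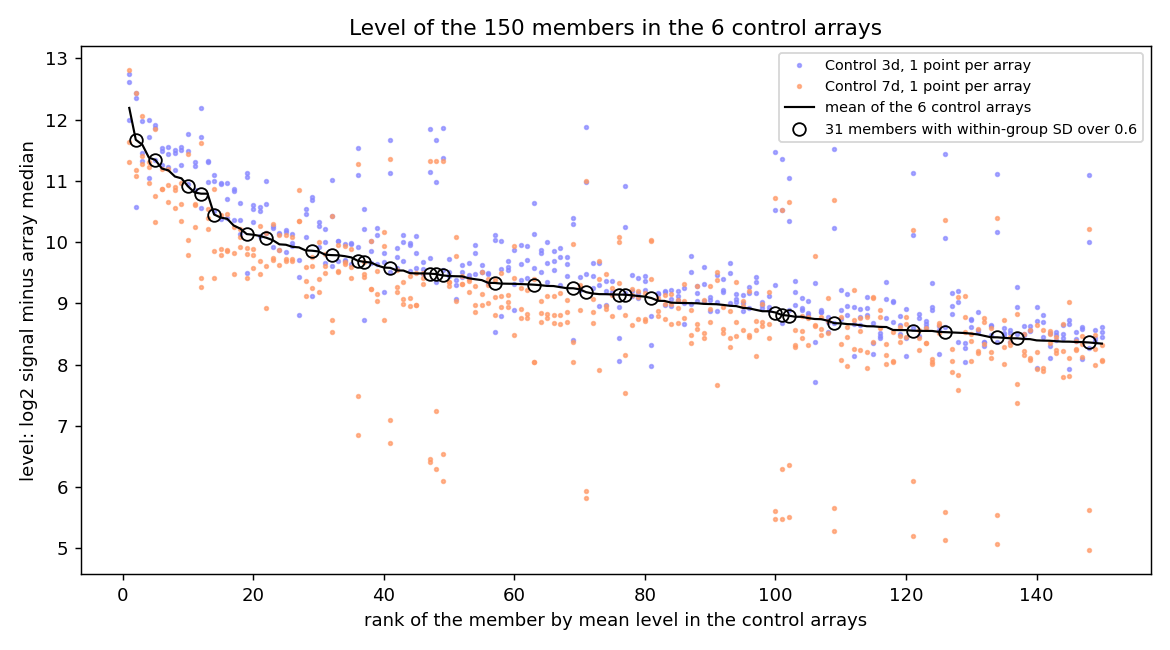
Level (log2 signal minus array median, vertical axis) of the 150 members against their rank by mean control level (horizontal axis), with 1 point for each of the 6 control arrays, a line for the mean and circles around the 31 members whose within-group SD was over 0.6. The mean runs from 12.19 at rank 1 to 8.342 at rank 150, and some circled members have 7 day control arrays several units under the mean.

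The 150 members carried a large part of all signal in every group. Their share of the summed signal of the kept probes lay between 27.86% and 42.85% over the 54 arrays. It was 40.4% ± 3.53 (SD, n = 3) in Control 3d and 35% ± 4.42 in Control 7d. The lowest group shares were 30.8% ± 2.13 in CuNO3 EC50 7d and 31.2% ± 3.07 in Cu-NPs EC50 7d, and the highest share of exposed worms was 39.9% ± 2.16 in Cu-NPs EC20 3d. Arrays of most groups overlapped in this share, which is a description because the controls chose the members.

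**Figure D2:**
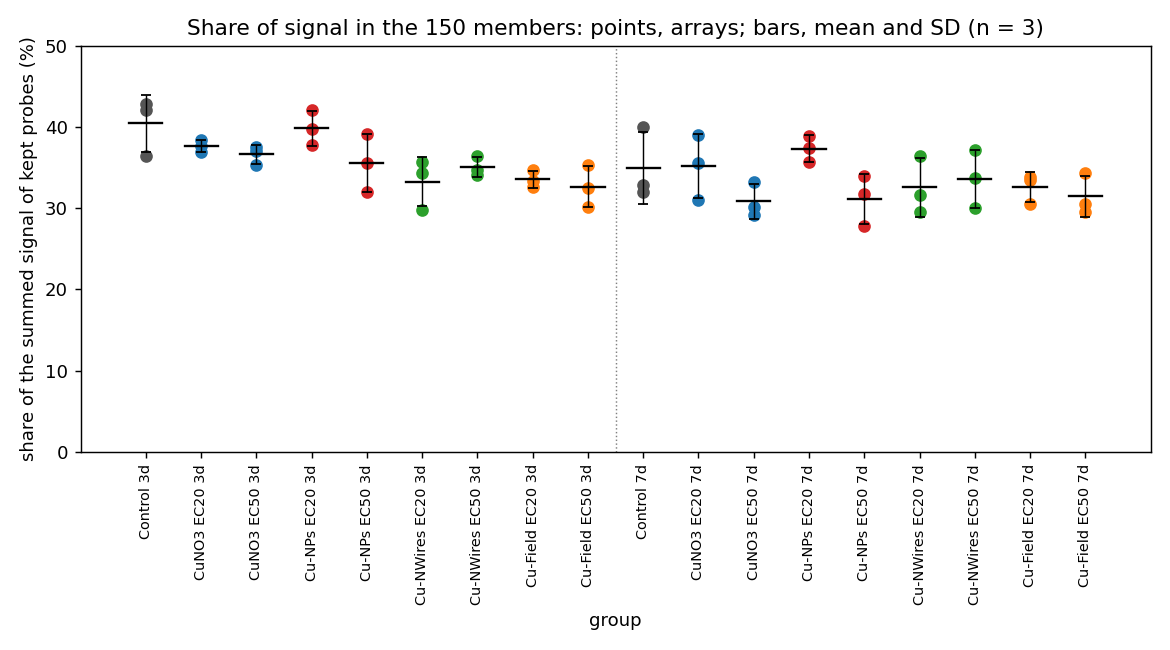
Share of the summed signal of all kept probes that fell on the 150 members (percent, vertical axis) in each of the 18 groups, with 1 point per array and bars for the mean and SD (n = 3). All 54 arrays lie between 27.86% and 42.85%, and the means of the exposed groups range from 30.8% to 39.9%.

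Most members also ranked high in exposed worms. Between 116 (CuNO3 EC50 3d) and 138 (CuNO3 EC20 7d) of the members were among the 150 highest probes of the group's own mean. In all 18 groups together, 84 members stayed within the top 150 and 125 within the top 300. No member was outside the top 150 of every exposed group, and 87 other probes entered the top 150 of at least 1 of them. The steadiest member by the SD of its 18 group means was rank 139, contig24039, whose level stayed between 7.955 and 8.742 on the 54 arrays around a control mean of 8.415. The least steady was rank 10, GYUW2K401EIO4R, whose 18 group means had an SD of 2.71 against 0.11 for contig24039.

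The members split into a steady majority and a variable minority. Replicates of a group differed by an SD of 0.289 in the median member, less than the 0.461 of the median kept probe, and close to the 0.28 of the next 150 probes by control level. Among the members, 45 (30%) had a within-group SD under 0.25, against 5.97% of all kept probes and 38.7% of those next 150. At the other end, 31 members (20.7%) had a within-group SD over 0.6, against 25.6% of all kept probes and 14.7% of those next 150. The 119 steady members had a median within-group SD of 0.273, and 79 of them stayed within the top 150 of all groups. Of the 31 variable members, 5 did.

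The 31 variable members varied together in a few sets. Joined by the correlation of their levels over the 54 arrays (average linkage, cut at a distance of 0.2), they formed 5 sets of 16, 4, 4, 3 and 2 members and 2 single members, ranks 10 and 137. The sets were drawn after the values were seen, over arrays that share slides and brightness, so that they describe which members moved together and are not tested. Members of a set move together by the way it was drawn, so several calls within 1 set are not separate support. The contrasts described for each set are mainly those in which its members were called. The share of all kept probes beside such calls is given for scale only. The heat map of group means shows them in order. The differences between replicate pools of 1 group were large for these members by the rule that chose them, and most of the comparisons that involve them rest on a few arrays. The methods' t-test, which takes the spread from the 6 arrays of each contrast alone, called 0 of these 31 members in any contrast after adjustment.

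**Figure D3:**
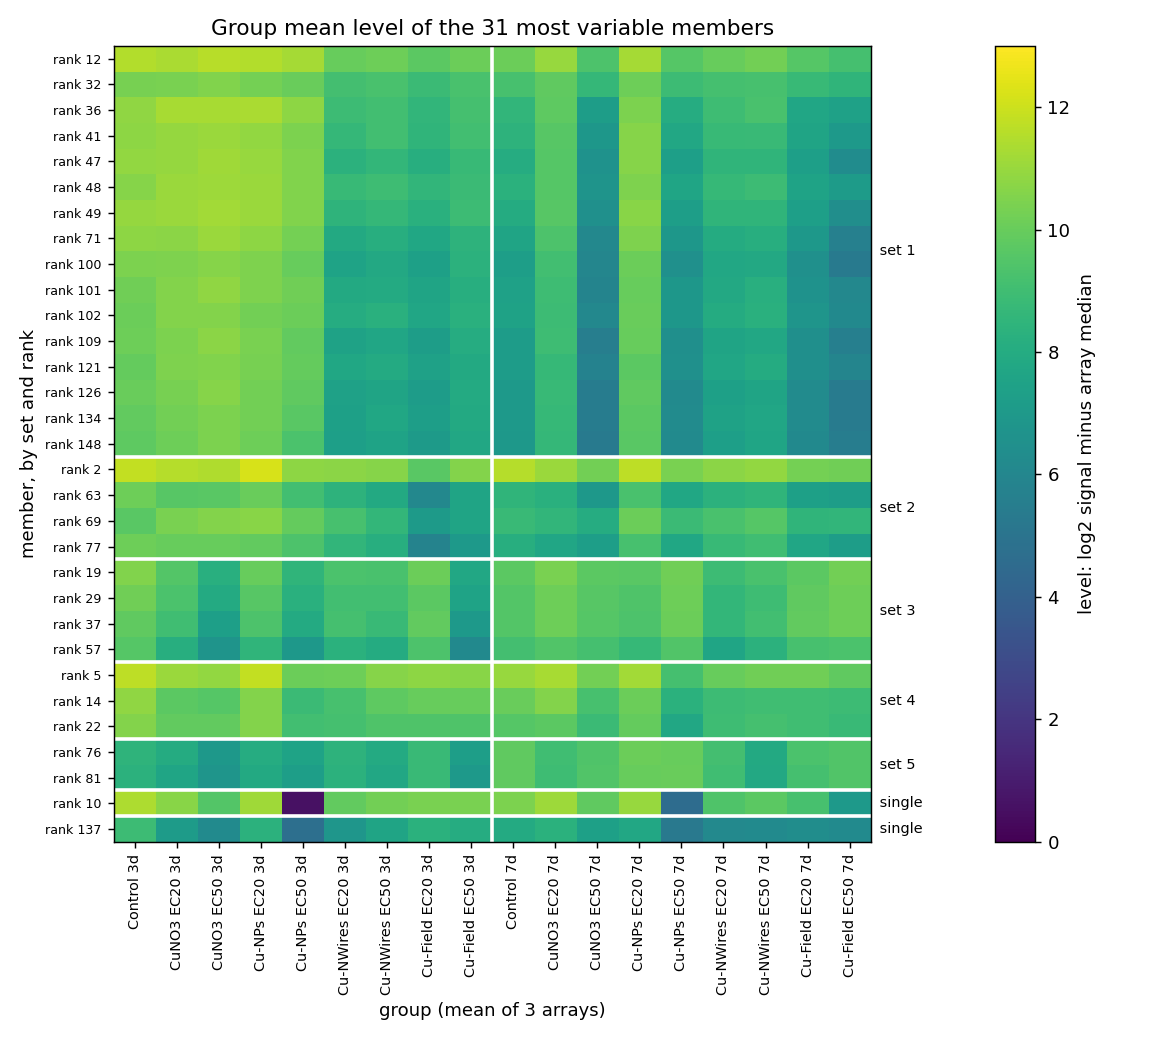
Mean level (log2 signal minus array median, colour) of the 31 variable members (vertical axis, by set and rank) in the 18 groups (horizontal axis, 3 arrays each, 3 days left of the white line). The darkest cell is rank 10 in Cu-NPs EC50 3d, with a mean of 0.574, and under Median normalization the members of set 1 are lower in most groups at 7 days than in the CuNO3 and Cu-NPs groups at 3 days.

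The member of rank 10, GYUW2K401EIO4R, was nearly as bright as the top members in most groups and far lower in worms exposed to Cu-NPs at EC50 for 3 days. In controls its levels were 11.76, 10.94 and 11.49 at 3 days and 9.789, 10.04 and 11.44 at 7 days. In Cu-NPs EC20 3d they were 11.33, 10.68 and 11.45, and in Cu-NPs EC50 3d they were -0.65, 1.43 and 0.94. The 3 arrays of Cu-NPs EC50 3d thus lay near the median probe of the array, with no overlap with the EC20 arrays, and all were still well above background. Between these groups the level fell by 10.58 on the log2 scale (SE 1.49, 1530-fold; adjusted p = 3.04e-05, limma with Benjamini-Hochberg adjustment over the kept probes), in a contrast where 4% of all kept probes passed. The fall was seen on each scan day by itself, at -11.7 and -10.3.

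At 7 days the same member was uneven among the pools exposed to Cu-NPs at EC50. Its levels were 4.978, -1.43 and 10.28 there, against 10.67, 10.77 and 11.52 in Cu-NPs EC20 7d. The pool of replicate 3 remained close to the EC20 pools, the pool of replicate 1 lay near 5 and that of replicate 2 was the lowest of all 54 arrays. The mean fell by 6.38 on the log2 scale (83-fold, adjusted p = 0.0436, limma), a call that was lost in 8 of 18 alternatives, with adjusted p between 0.0558 (scan day as a block) and 0.696 (slide as a block), among them leaving out Cu-NPs EC20 7d replicate 3 (0.246). Against CuNO3 EC50 3d, with levels of 7.253, 11.12 and 10.14, the Cu-NPs EC50 3d arrays were lower by 488-fold (log2 difference -8.93, adjusted p = 0.00219), and without CuNO3 EC50 3d replicate 2 the adjusted p was 0.0605. A low value was also found in 1 Cu-Field EC50 7d array, replicate 1, at 1.735, where the other 2 arrays had 9.49 and 9.782. In the 14 groups other than these and CuNO3 EC50 3d, all arrays were between 8.104 and 12.

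Probes outside the members followed rank 10 most closely. Over the 54 arrays, 38 kept probes had r over 0.8 with rank 10 and 12 had r over 0.9, and 0 of the 38 were members, while rank 137 had r = 0.76. The probe most like it was GYUW2K401A9C8N (r = 0.952, n = 54 arrays), with a mean control level of 3.52. These correlations are across arrays that share groups, slides and brightness, and they rest largely on the few low arrays.

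The other single member, rank 137 (contig02370), moved in the same comparison by a smaller step. Its levels were 8.766, 7.605 and 8.668 in Cu-NPs EC20 3d and 3.889, 4.915 and 5.472 in Cu-NPs EC50 3d, with no overlap. It fell by 3.59 on the log2 scale (SE 0.85, 12-fold, adjusted p = 0.0128, limma). The call was lost with the E1A spike-ins (adjusted p = 0.0636), with the slide as a block (0.0915) and by the methods' t-test (0.229), and without Cu-NPs EC20 3d replicate 1 or 3 or Cu-NPs EC50 3d replicate 2. In CuNO3 its group means were 7.15 ± 0.238 (SD, n = 3) at EC20 3d and 6.24 ± 0.507 at EC50 3d, a difference that did not pass the threshold. Over all arrays it ranged from 3.641 to 10.26.

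Set 1 was the largest set, with 16 members at ranks 12 to 148, of which 9 were named after reads. Its members correlated with each other at r between 0.936 and 0.999 over the 54 arrays, and 317 kept probes outside the members had r over 0.9 with the mean of the set. The mean level of the set ranged 80.9-fold, from 5.294 in Cu-NPs EC50 7d replicate 1 to 11.63 in Cu-NPs EC20 7d replicate 3. Together these 16 probes took between 0.452% and 12.1% of the signal of the kept probes. The set differed strongly between pools of 1 group. In CuNO3 EC20 7d its mean was 11.1, 5.455 and 11.4, and in Control 7d it was 6.159, 6.577 and 10.84. In Cu-NWires EC50 7d it was 8.551, 10.54 and 6.121, so that single pools of these 3 groups lay 21.4-fold or more from another pool of the same group.

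In the CuNO3 EC50 groups, all 16 members of set 1 fell from 3 days to 7 days. The mean of the set was 10.96, 11.32 and 10.33 at 3 days and 7.709, 5.632 and 6.079 at 7 days, with no overlap. In the controls, given without a test, it was 11.49, 9.193 and 10.68 at 3 days and 6.159, 6.577 and 10.84 at 7 days. A lower mean at 7 days was thus also seen without added copper, although the control days overlapped. In the CuNO3 EC50 contrast 17.2% of all kept probes were called, 11.6% as lower. Single members were 3.68-fold to 36.7-fold lower, with adjusted p between 0.00983 and 0.0158 (limma). The member with the largest difference, rank 126 (GYUW2K401DC3TG), had levels of 10.91, 11.17 and 9.895 at 3 days and 6.915, 4.383 and 5.077 at 7 days. These calls rest on few arrays: 0 of the 16 were past the threshold without CuNO3 EC50 3d replicate 2 or without CuNO3 EC50 7d replicate 2, and 8 without CuNO3 EC50 7d replicate 3. With the slide as a block (a fixed term) 0 remained, and under scaling to the E1A spike-ins 14 were called and the 16 no longer all went the same way. In the other 27 contrasts 0 of the 16 passed, with the lowest adjusted p, 0.0556, for Cu-Field against CuNO3 at EC20 3d, where single members were 2.91-fold to 9.09-fold lower.

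Set 2 held ranks 2, 63, 69 and 77, all named after reads, with r between 0.818 and 0.949. It was lower in Cu-Field than in CuNO3 at EC20 3d. Its mean level was 10.41, 10.38 and 10.35 in CuNO3 EC20 3d and 5.223, 7.042 and 9.223 in Cu-Field EC20 3d, so the groups did not overlap while the Cu-Field pools themselves ranged 16-fold. All 4 members fell, by 3.63-fold to 17.6-fold with adjusted p between 0.0153 and 0.0416 (limma), where 3.72% of all kept probes were lower. The member of rank 77 (GYUW2K401AWZH1), with the largest difference, had 10.03, 9.947 and 9.919 in CuNO3 and 3.838, 5.547 and 8.107 in Cu-Field. Leaving out CuNO3 EC20 3d replicate 1 or 3 or Cu-Field EC20 3d replicate 1 or 2 left 0 of the 4 calls. With normexp background correction, the slide as a block or array brightness as a covariate, 0 of the 4 were called. All 4 members kept the lower level in Cu-Field under every scaling tried. Ranks 63 and 69 also fell from 3 days to 7 days in CuNO3 EC50 (6.75-fold and 5.96-fold, adjusted p = 0.0347 and 0.0273, limma), where 11.6% of all kept probes were lower.

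Sets 3 and 5 were higher at 7 days than at 3 days in several EC50 groups. Set 3 held ranks 19, 29, 37 and 57, all contigs, with r between 0.947 and 0.98. Its mean was 5.679, 7.456 and 8.26 in Cu-Field EC50 3d and 9.306, 10.09 and 10.46 in Cu-Field EC50 7d, with no overlap. All 4 members rose there, by 5.52-fold to 8.85-fold with adjusted p between 0.024 and 0.0427 (limma), where 0.523% of all kept probes were higher. In CuNO3 EC50, where the mean was 8.21, 5.9 and 8.523 at 3 days and 9.9, 9.537 and 9.13 at 7 days, 3 of the 4 rose, with 5.6% of all kept probes higher. The 4 calls in Cu-Field fell to 0 without Cu-Field EC50 3d replicate 1 or 2 or without Cu-Field EC50 7d replicate 3, and to 0 under scaling to the E1A spike-ins, with no normalization, without a filter or with the slide as a block, while in Cu-Field the members stayed higher at 7 days under every scaling.

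Set 5 was the pair of ranks 76 (GYUW2K402GGCE5) and 81 (GYUW2K402G8V8Y), with r = 0.992. Its mean was 6.875, 5.303 and 8.418 in CuNO3 EC50 3d and 9.196, 9.454 and 9.682 in CuNO3 EC50 7d. In Cu-NPs EC50 the values were 7.58, 7.437 and 7.251 at 3 days and 10.05, 10.12 and 9.827 at 7 days, which are 2 tight and separate clusters. Both members rose in CuNO3 EC50 (5.56-fold and 6.42-fold, adjusted p between 0.00884 and 0.00976, limma) and in Cu-NPs EC50 (5.43-fold and 6.53-fold, adjusted p between 0.0257 and 0.0313, with 1.3% of all kept probes higher). In Cu-Field EC50 rank 81 rose 5.61-fold (adjusted p = 0.0473), and rank 76 differed by 4.58-fold with an adjusted p of 0.0612. The CuNO3 calls were lost without CuNO3 EC50 3d replicate 2, the Cu-NPs calls without Cu-NPs EC50 3d replicate 2 or 3 or Cu-NPs EC50 7d replicate 1 or 2, without a filter or with brightness as a covariate, and both with the slide as a block. In both contrasts the pair was higher at 7 days under every scaling. In the controls it was 8.023, 8.867 and 8.371 at 3 days and 10.02, 9.36 and 10.04 at 7 days.

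Set 4 held ranks 5, 14 and 22, with r between 0.867 and 0.951. It was lower in Cu-NPs EC50 7d than in Cu-NPs EC20 7d, at 7.74, 7.642 and 9.909 against 10.44, 10.18 and 10.6, without overlap. Ranks 5 and 22 fell, by 4.02-fold and 4.37-fold (adjusted p = 0.0436 for each, limma), and the adjusted p of rank 14 was 0.0544, in a contrast where 2.18% of all kept probes were lower. The member of rank 5 had 11.23, 10.96 and 11.37 at EC20 and 8.614, 8.412 and 10.51 at EC50. The calls were lost with normexp, with no normalization, under scaling to the E1A spike-ins, without a filter, in a fit of the 2 groups alone, and with scan day, slide or brightness in the fit. They were also lost without Cu-NPs EC20 7d replicate 1 or 3 or Cu-NPs EC50 7d replicate 1 or 2. The members stayed lower in each of these, with a median log2 difference of -2.01 under Median normalization and -0.28 with the E1A spike-ins.

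**Figure D4:**
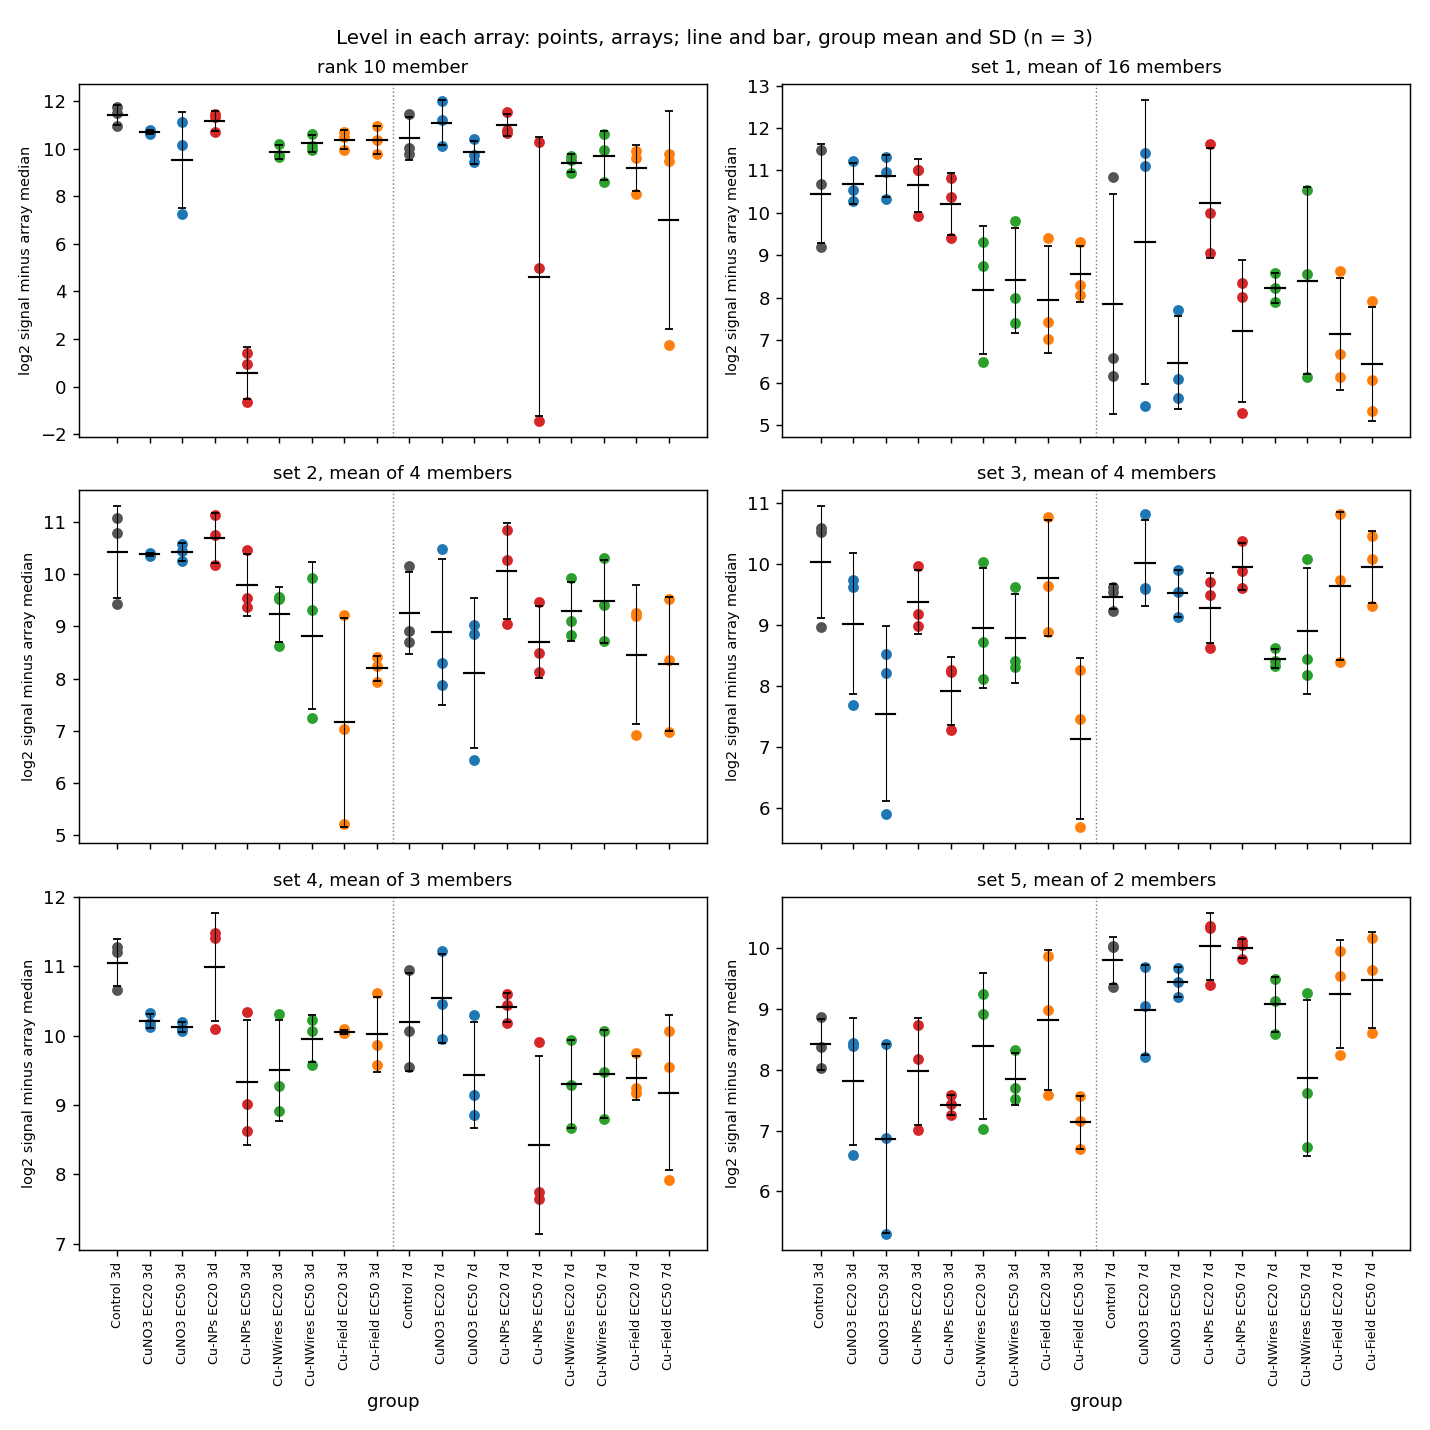
Level (log2 signal minus array median, vertical axes that differ between panels and do not start at 0) of the rank 10 member and mean level of the members of sets 1 to 5 in each of the 54 arrays (points), by group (horizontal axis), with the group mean and SD (n = 3). Rank 10 lies between -0.65 and 1.43 in Cu-NPs EC50 3d, and set 1 ranges from 5.455 to 11.4 within CuNO3 EC20 7d. Directions named in the text for sets 2 to 5 held under every scaling, and that of set 1 held for all 16 members under every scaling except the E1A spike-ins.

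The 28 contrasts between exposed groups addressed the effect level, the form of copper and the day, and the members were compared with all 19499 kept probes in each. For the effect level (EC50 against EC20 within form and day), 1 of 150 members (0.667%) passed the joint F-test, against 0.241% of all kept probes. This was rank 10 (F-test adjusted p = 0.00164, limma, lost with the slide as a block at 0.284), with a mean EC50 minus EC20 difference of -2.62 over the 8 pairs of groups. At an unadjusted p under 0.05 there were 12 members. The share of all kept probes at an unadjusted p is not given here or below, so no such count is read as an excess of members. Of the 8 single contrasts, Cu-NPs at 3 days had 2 members called (background 4%, with 1.7% lower) and Cu-NPs at 7 days had 3 (background 3.82%, with 2.18% lower), all lower at EC50 and all described above. The count at 7 days was 0 with normexp and 120 with the E1A spike-ins, and 0 to 16 when single arrays were left out (0 without Cu-NPs EC20 7d replicate 1, 16 without Cu-NPs EC50 7d replicate 3). The share of all kept probes called in those fits is not given, so neither 120 nor 16 is read as an excess of members. The other 6 contrasts had 0 members called and a background of 0%, both after adjustment. At an unadjusted p under 0.05, with no background given, they had 1 to 47 members. The 47 were in CuNO3 at 7 days, where the members' median difference was -0.383 against -0.0806 for all kept probes, where the methods' t-test called 0 after adjustment and where 37 members were called without CuNO3 EC20 7d replicate 2. The share of all kept probes called in that last fit is not given, so 37 is not read as an excess of members.

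For the form of copper (Cu-NPs, Cu-NWires and Cu-Field against CuNO3 at the same effect level and day), 42 members (28%) passed the F-test, against 23% of all kept probes and 32 of the next 150 probes by control level. The share was thus near the background. The 42 included all 4 members of set 2, 2 of set 1, ranks 10 and 137 and 34 steady members. The F-test asks whether any of the 12 contrasts differs from 0 and does not test their mean. The median difference of the 150 members ran from -0.551 (Cu-Field at EC50 3d) to 0.373 (Cu-NWires at EC50 7d). On average over the 12 contrasts, 38 of the 42 were lower than in CuNO3 and 4 were higher, against 15.1% and 7.85% of all kept probes, a split that turned to 26 higher and 5 lower under Quantile normalization, 106 and 5 under SVCD, 24 and 8 with the E1A spike-ins and 15 and 3 with no normalization. Among all 19499 kept probes these settings called 3781, 12309, 9265 and 6175. The broad direction therefore depended on the scaling. The largest mean differences below 0 belonged to rank 10 (-1.66, adjusted p = 0.000502), whose call was kept in all 16 alternatives, and to rank 12 (contig21086, -0.63, adjusted p = 0.036), whose call was lost in 9 of 16.

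The 2 members with the largest mean differences above 0 were highest in worms exposed to nanowires at EC50 for 3 days. Rank 40 (contig19709) had 9.277, 9.171 and 9.419 in CuNO3 EC50 3d and 10.25, 10.41 and 10.18 in Cu-NWires EC50 3d, and rank 115 (contig07467) had 8.387, 8.234 and 8.183 against 9.062, 9.246 and 9.586. Neither pair of groups overlapped. Rank 40 rose 1.99-fold (adjusted p = 0.049, limma) and rank 115 rose 2.04-fold (adjusted p = 0.0249) in that contrast, where 3 members were called against a background of 7.76% (2.65% higher and 5.11% lower). The count there was 99 under SVCD and 0 with the E1A spike-ins, 0 without CuNO3 EC50 3d replicate 2 and 11 without Cu-NWires EC50 3d replicate 1. The share of all kept probes called in those fits is not given, so neither 99 nor 11 is read as an excess of members. In that contrast rank 40 lost its call in 9 of 16 alternatives and in 35 of the 54 fits without 1 array, and rank 115 in 5 and 3. Over the 12 contrasts, the mean difference was 0.40 for rank 40 (F-test adjusted p = 0.0493) and 0.29 for rank 115 (0.0324). The F-test call of rank 40 was lost in 7 of 16 alternatives and that of rank 115 in 4, without a change of direction.

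Among the single contrasts of form, Cu-Field against CuNO3 at EC20 3d had the most members called under Median normalization. There, 15 members (10%) were called, against a background of 5.55% (3.72% lower), and all 15 were lower in Cu-Field. Beside set 2, these were 11 steady members with log2 differences between -0.899 and -0.663. Their direction was that of the scaling, since Quantile normalization called 6 members higher and 3 lower, SVCD 56 and 3, and the E1A spike-ins 21 and 2. Among all 19499 kept probes the 3 scalings called 1305, 8712 and 4839. The count of members was 0 without CuNO3 EC20 3d replicate 1 or 3 or Cu-Field EC20 3d replicate 1, 1 without Cu-Field EC20 3d replicate 2, and 30 without CuNO3 EC20 7d replicate 2, an array outside the contrast that enters through the shared estimate of the spread. The share of all kept probes called without single arrays is not given, so 30 is not read as an excess of members. Within the second scan day, with 3 against 2 arrays, the members' median difference was -0.509, close to the -0.479 over all arrays.

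Under Median normalization the remaining contrasts of form held few members. Cu-Field against CuNO3 at EC50 3d had 3 lower (background 0.636%, with 0.354% lower), and at EC20 7d 1 higher (background 0.333%, with 0.0667% higher), rank 60. Cu-NWires against CuNO3 had 1 lower at EC20 3d (background 1.95%, with 1.65% lower), and 1 higher and 1 lower at EC20 7d (background 2.77%, with 1.6% higher and 1.17% lower). Cu-NPs against CuNO3 at EC50 3d had rank 10 alone (background 0.0923%, with 0.0821% lower). These counts moved with the setting: Cu-NWires at EC20 3d had 85 members under SVCD, Cu-NWires at EC20 7d 11 under Quantile normalization, Cu-Field at EC50 3d 72 with the E1A spike-ins and Cu-Field at EC20 7d 31 under SVCD. Without CuNO3 EC20 7d replicate 2 they were 24 for Cu-Field and 12 for Cu-NWires at EC20 7d and 7 for Cu-Field at EC50 3d. The shares of all kept probes called in these fits are not given, so the counts are not read as an excess of members. The other 5 contrasts of form had 0 members called, with a background of 0%, 0.00513%, 0.0103% or 0.0308%, both after adjustment. At an unadjusted p under 0.05, with no background given, they had 0 to 26 members. The 26 were in Cu-NWires against CuNO3 at EC50 7d, where the members' median difference was 0.373, and the methods' t-test called 0 members in all 5 after adjustment.

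For the day (7 days against 3 days within each form and effect level), 51 members (34%) passed the F-test, against 13.5% of all kept probes. The next 150 probes by rank had 46, so that the excess was shared with the probes just below the members. The 51 included 8 of 16 members of set 1, all 4 of set 3, both of set 5 and 37 steady members. By the mean over the 8 contrasts, a value that the F-test does not test, 43 were lower and 8 were higher at 7 days, against 8.47% and 5.01% of all kept probes, which became 13 higher and 14 lower under Quantile normalization, 67 and 10 under SVCD and 43 and 13 with the E1A spike-ins. Among all 19499 kept probes these scalings called 2545, 9677 and 8876. The share of members called was thus close to that of all kept probes under SVCD and below it with the E1A spike-ins. The largest mean differences above 0 belonged to rank 81 (1.54, adjusted p = 0.000494, limma) and rank 76 (1.42, adjusted p = 9e-04), each kept in 15 of 16 alternatives and lost with the slide as a block. The largest below 0 belonged to rank 126 (-1.79, adjusted p = 0.0416) and rank 134 (contig09237, -1.73, adjusted p = 0.0474), each lost in 7 of 16.

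Among the single day contrasts, CuNO3 at EC50 had the most members called under Median normalization, while under SVCD Cu-Field at EC50 had 94 against its 57. There, 80 members (53.3%) were called, against a background of 17.2%, with 73 lower (background 11.6%) and 7 higher (background 5.6%) at 7 days. Beside set 1, 55 steady members and ranks 63 and 69 of set 2 were lower. Higher were 2 steady members, 3 of set 3 and 2 of set 5. The median difference of the 119 steady members was -0.609 (1.53-fold). As with the form, the broad direction turned with the scaling: Quantile normalization called 34 higher and 15 lower, SVCD 43 and 14 and the E1A spike-ins 102 and 14. Among all 19499 kept probes these scalings called 3419, 9485 and 15542. The share of members called was thus lower than that of all kept probes with SVCD and with the E1A spike-ins. The count of members was 22 without CuNO3 EC50 3d replicate 2, 28 without CuNO3 EC50 7d replicate 2, 43 without CuNO3 EC50 7d replicate 3 and 0 with the slide as a block. The shares of all kept probes called without single arrays are not given, so 22, 28 and 43 are not read as an excess of members. Within the first scan day, with 3 against 2 arrays, the members' median difference was -0.686, against -0.675 over all arrays.

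Under Median normalization the size of this difference followed the level of the probes. Its median was -0.675 for the members, -0.458 for the next 150 probes, -0.32 for ranks 301 to 600, -0.281 for ranks 601 to 1200 and -0.215 for ranks 1201 to 2500. It was -0.137 and -0.0778 for the next 2 classes down to rank 10000, and -0.217 for the lowest. The members were thus the extreme of a gradient and not a class apart. Relative to the median of all kept probes, the members' median lay at -0.49, a value that every scaling by 1 number per array leaves as it is, and at 0.341 under Quantile normalization.

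Brightness of the arrays differed between the days in CuNO3 EC50. These arrays had median signals of 71.11 to 88.49 at 3 days and 89.27 to 114.5 at 7 days. With brightness as a covariate, 61 members were called in the day contrast of CuNO3 EC50 (59 lower), against 80, and 49 members were called in the F-test of day, against 51. Among all 19499 kept probes these counts were 2246 against 3362 and 2392 against 2629. In the same fit the members called in the F-test of form fell from 42 to 3, those in Cu-Field against CuNO3 at EC20 3d from 15 to 0, and those in the day contrast of Cu-NPs EC50 from 15 to 0. Among all 19499 kept probes these calls fell from 4484 to 1104, from 1083 to 185 and from 611 to 106. Brightness differed between groups, so its part and that of copper in these counts cannot be told apart by this fit. Pools of 1 group also differed in brightness, most in Control 7d and CuNO3 EC20 7d. In Control 7d, median signals of 114.2, 114.7 and 47.48 went with member shares of 32.81%, 32.03% and 40.05%. In CuNO3 EC20 7d, median signals of 93.92, 107.2 and 35.94 went with shares of 35.52%, 31.06% and 38.97%. The relation was not tested.

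Cu-NPs at EC50 and Cu-Field at EC50 also had members called between days. In Cu-NPs EC50, 15 members (10%) were called, against a background of 3.13% (1.3% higher and 1.83% lower), namely both of set 5 as higher and 13 steady members as lower by -1.07 to -0.753 log2 units. Median normalization called 13 members lower and the 75th percentile 11, while Quantile normalization called 6 members higher and 0 lower, SVCD 18 and 0 and the E1A spike-ins 81 and 0. Among all 19499 kept probes, Quantile normalization called 449, SVCD 4490 and the E1A spike-ins 10407. The count of members was 0 without Cu-NPs EC50 3d replicate 2 or 3 or Cu-NPs EC50 7d replicate 1, 4 without Cu-NPs EC50 7d replicate 2 and 42 without Cu-NPs EC50 3d replicate 1. The share of all kept probes called without single arrays is not given, so 42 is not read as an excess of members. In Cu-Field EC50, 6 members were called, all higher, against a background of 1.24% (0.523% higher). These were the 4 members of set 3, rank 81 and rank 147, which had 8.116, 8.195 and 7.943 at 3 days and 9.27, 9.219 and 9.328 at 7 days (2.28-fold, adjusted p = 0.0102, limma). The count was 94 under SVCD, 0 with the E1A spike-ins and 0 without Cu-Field EC50 3d replicate 2. The share of all kept probes called in those fits is not given, so 94 is not read as an excess of members. The call of rank 147 (contig16173) was lost in 7 of 16 alternatives and without Cu-Field EC50 3d replicate 2 or 3 or Cu-Field EC50 7d replicate 1 (adjusted p up to 0.618 with the E1A spike-ins), and that of rank 81 (GYUW2K402G8V8Y) in 10 of 16 and in 24 of the 54 fits without 1 array. The other 5 day contrasts had 0 members called, with a background of 0%, 0.118%, 0.241% or 0.349%, both after adjustment. At an unadjusted p under 0.05, with no background given, they had 1 to 22 members, and the methods' t-test called 0 in each after adjustment.

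**Figure D5:**
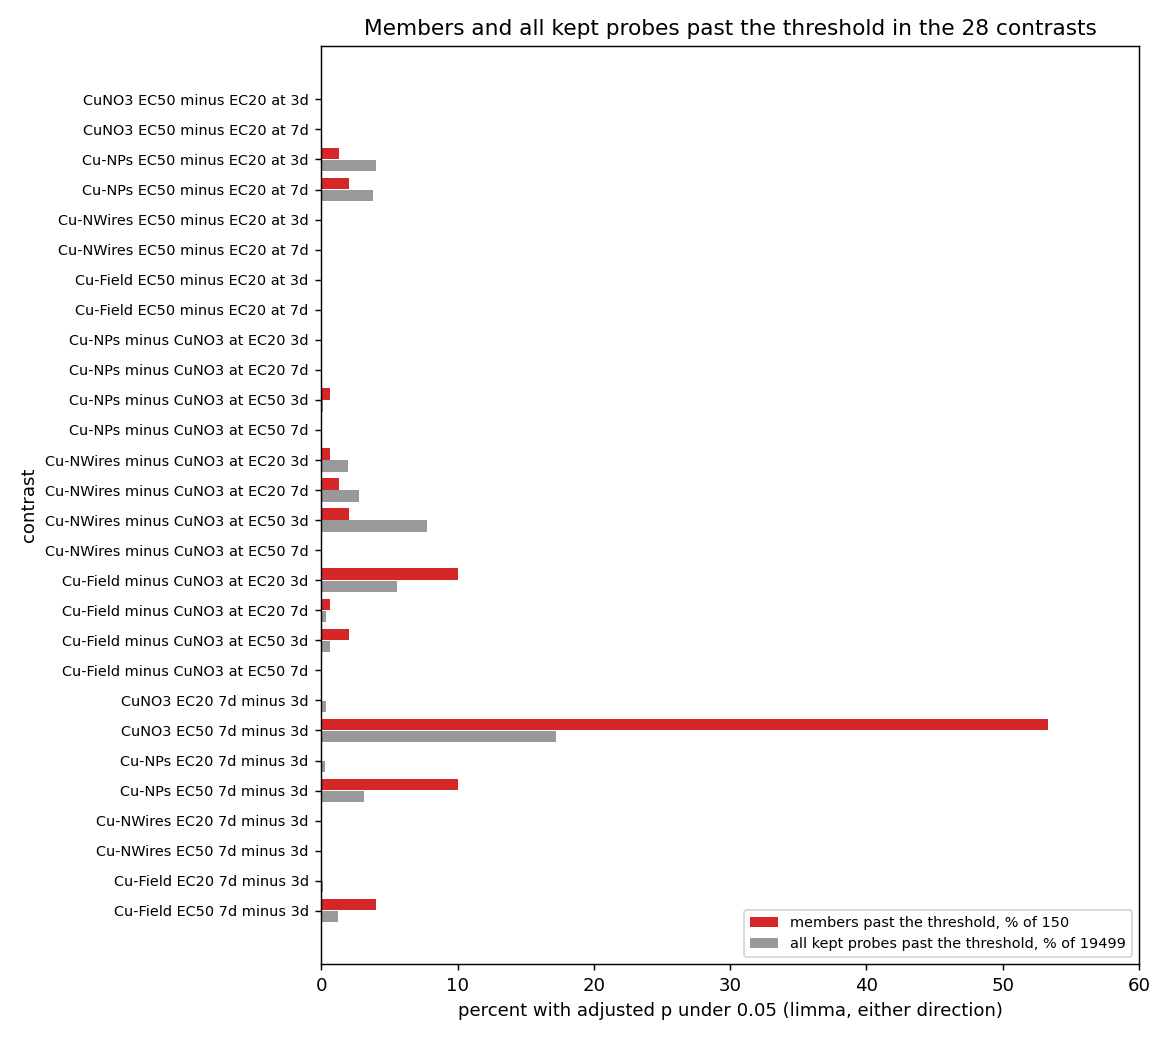
Percent of the 150 members (red) and of all 19499 kept probes (grey) with a limma adjusted p under 0.05 (horizontal axis) in the 28 contrasts between exposed groups (vertical axis). The longest bar pair is CuNO3 EC50 7d minus 3d, with 53.3% of members and 17.2% of all kept probes, of which 73 members were lower and 7 higher under Median normalization, 34 higher and 15 lower under Quantile normalization, 43 and 14 under SVCD, and 102 and 14 with the E1A spike-ins. In this contrast Quantile normalization called 3419 of all kept probes, SVCD 9485 and the E1A spike-ins 15542.

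Whether the day difference itself varied among the 8 treatments was tested by an interaction F-test. Of the members, 1 (0.667%) passed, against 2.3% of all kept probes, and 50 had an unadjusted p under 0.05, a threshold with no background given. The member that passed was rank 64 (contig02567, adjusted p = 0.0132, limma). Its levels in CuNO3 EC50 were 10.42, 10.64 and 10.08 at 3 days and 9.062, 8.688 and 8.923 at 7 days, and in Cu-Field EC50 they were 8.819, 9.361 and 9.351 at 3 days and 9.622, 9.964 and 9.736 at 7 days. The groups of each form did not overlap, and the order of the days was opposite. Leaving out single arrays gave up to 9 members, the highest count without Cu-NWires EC50 3d replicate 1. The share of all kept probes called in that fit is not given, so 9 is not read as an excess of members.

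Against the controls of the same day, which chose the members and are shared by 8 groups each, the members' median was lower in 10 of 16 exposed groups under Median normalization. The number was 12 with the 75th percentile, 5 under SVCD and 4 each under Quantile normalization, with the E1A spike-ins and with no normalization. The largest shifts at 3 days under Median normalization were in Cu-Field EC50 (-0.595, with 141 members below 0, against -0.073 for all kept probes), Cu-Field EC20 (-0.475, with 136 members below 0) and Cu-NWires EC20 (-0.395, with 132). CuNO3 and Cu-NPs at 3 days had medians between -0.0224 and 0.0675. At 7 days the medians ran from -0.265 in CuNO3 EC50 to 0.245 in Cu-NPs EC20. Relative to all kept probes, the members were lower in 9 of 16 groups under every scaling by 1 number per array and in 5 of 16 under Quantile normalization. These differences are given as values only, since the controls chose the members.

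The members that departed most from the controls were those of the sets. The lowest difference was -10.82 for rank 10 in Cu-NPs EC50 3d. The same member was at -5.81 in Cu-NPs EC50 7d and at -3.42 in Cu-Field EC50 7d, and rank 77 of set 2 was at -4.28 in Cu-Field EC20 3d. The highest was 2.90 for rank 71 of set 1 in Cu-NPs EC20 7d. In the 8 groups at 3 days, 1 to 34 members were more than 1 log2 unit below the controls, and 1 member was more than 1 unit above in Cu-NWires EC50. At 7 days, 0 to 21 members were more than 1 unit below, and 14 and 17 were more than 1 unit above in CuNO3 EC20 and Cu-NPs EC20. Those 2 groups were compared with Control 7d arrays in which set 1 was at 6.159, 6.577 and 10.84.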

How the data were processed

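The members and the lists of contrasts, sets and named members were chosen with earlier results of these data known. Total RNA of 54 pools of worms was labelled with Cy3 and hybridized to custom 1-colour arrays, 1 pool per array. The deposited intensity values are processed signals that the authors obtained with Agilent Feature Extraction 10.7.3.1 (protocol GE1_107_Sep09), which subtracted the background and detrended each array without scaling between arrays. The deposited value table holds the same intensities, with a ratio of 0.995 to 1.005.

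Probes that were not controls and were significantly above background on all 54 arrays were kept, log2 transformed and centred on the array median (Median normalization). Limma 3.58.1 in R 4.3.3 fitted 1 mean per group over all 54 arrays (36 residual degrees of freedom), with empirical Bayes moderation, F-tests over families of contrasts, Benjamini-Hochberg adjustment over 19499 probes and a threshold of 0.05. The number of arrays limits the precision, and each control array entered the fit only through the spread. Groups came from the labels.

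The alternatives were Quantile, SVCD (standard-vector condition decomposition, which scales on genes without evidence of variation), 75th percentile, scaling to 254 E1A spike-in probes, no normalization, normexp (offset 50, on median spot signals because mean signals were not used here), 2 other filters, the slide, scan day or replicate number as a block, fits of 2 groups, the methods' t-test and leaving out each array. Each block was a fixed term in the fit. Array brightness as a covariate and differences within scan days were chosen after seeing the data. Named members were ranks 1 to 5, the 2 probes at the limit, the steadiest and least steady member and, per family, up to 2 higher and 2 lower members with the largest mean differences; ranks 2, 5, 22, 37, 64, 77, 137 and 147 were chosen in single results after their values were seen. The fit was tested on simulated data. No reference genome or gene names were used.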

Additional observations from a re-analysis of the deposited data

Results flagged for a closer look

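The difference between 7 days and 3 days of rank 64 (contig02567) varied among the 8 combinations of copper form and effect level (adjusted p = 0.0132, limma F-test of day by treatment). It was the only member of 150 past the threshold in this test under Median normalization, and 6 of its 16 alternatives lost the call (adjusted p from 0.00276 to 0.703), among them Quantile normalization, the E1A spike-ins and the slide as a block. The log2 differences were -1.13 in CuNO3 EC20, -1.49 in CuNO3 EC50, -1.2 in Cu-NPs EC20 and -0.715 in Cu-NPs EC50. They were -0.22 and -0.28 in Cu-NWires EC20 and EC50, -0.0223 in Cu-Field EC20 and 0.597 in Cu-Field EC50, each with an SE of 0.295. Singly, the difference in CuNO3 EC50 was past the threshold (adjusted p = 0.0041) and that in Cu-Field EC50 was not (adjusted p = 0.235).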

How the results depend on the processing

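Arrays left out one at a time gave 1 to 15 members in the effect level F-test, 23 to 71 in the copper form F-test, 27 to 67 in the day F-test and 1 to 9 in the day by treatment F-test, against 1, 42, 51 and 1. They gave 22 to 89 members in CuNO3 EC50 7d minus 3d (80), 0 to 42 in Cu-NPs EC50 7d minus 3d (15), 0 to 30 in Cu-Field minus CuNO3 at EC20 3d (15), 8 to 114 calls in the other 25 contrasts together, and kept 140 to 147 members of the list. The calls among all kept probes without single arrays are not given, so these counts are not read as an excess of members. The next counts have the calls among all kept probes in brackets, of 19499 probes per F-test or contrast unless another number is named. In the same order of F-tests and of contrasts, SVCD gave 20, 111, 77 and 70 (2518, 12309, 9677 and 6593) in the F-tests. It gave 59 (8712) in the Cu-Field contrast and 354 (42203 over all 25) in the other 25. No normalization gave 18 (6175) for form, 16 (1170) for day and 0 (397) for day by treatment. It gave 21, 2, 4 and 8 (915, 135, 992 and 3628) in the contrasts. Normexp gave 2, 8 and 0 (1164, 1039 and 325) in these 3 F-tests and 22, 2, 0 and 8 (1242, 126, 381 and 1181) in the contrasts. Without a filter, over 43750 probes, there were 4, 8 and 0 (2514, 1259 and 253) in these F-tests and 25, 0, 2 and 4 (1851, 129, 607 and 1480) in the contrasts. With the slide as a block (a fixed term) there were 0, 1, 0 and 0 (3, 116, 24 and 4) in the F-tests and 0, 0, 0 and 3 (0, 2, 24 and 1463) in the contrasts. Quantile normalization gave 27 (2545) in the day F-test and 49, 6, 9 and 39 (3419, 449, 1305 and 4418) in the contrasts. Under it the members lay below all kept probes in 5 of 16 treatments against controls, not 9. The E1A spike-ins gave 5 (2023) for day by treatment and 81, 23 and 194 (10407, 4839 and 26126) in the Cu-NPs, Cu-Field and other contrasts. The well above background filter, over 12827 probes, gave 4 (420) for day by treatment and 35 (3976) in the other 25. With scan day as a block there were 3 (461) for day by treatment, 6 (304) for Cu-NPs and 28 (1295) for Cu-Field. With array brightness as a covariate, chosen after seeing the data, there were 3 (1104) for form and 2 (762) for day by treatment. There were 0, 0 and 11 (106, 185 and 3350) in the Cu-NPs, Cu-Field and other contrasts. Fits of the 2 groups alone gave 50 (3379) for CuNO3, 8 (692) for Cu-NPs and 53 (5769) in the other 25. The methods' t-test gave 0, 0, 0 and 1 (11, 0, 0 and 14) in the contrasts after adjustment. The cause was not tested in any of these. Scalings by 1 number moved the median of all kept probes against the controls by -0.95 to 1.69 log2 units with the E1A spike-ins and -0.276 to 0.861 with SVCD, and Quantile normalization by -0.0441 to 0.152. Of 26 results on named members with 447 alternatives, 286 kept the call, 154 lost it and 7 reversed: rank 88 in Cu-NWires minus CuNO3 at EC20 3d (0.2123 with SVCD, 0.3013 with the E1A spike-ins), rank 95 at EC50 3d (0.04145 with Quantile, 0.3574 with SVCD, 0.09902 with the E1A spike-ins), rank 67 in Cu-Field minus CuNO3 at EC50 3d (0.3209, E1A spike-ins) and rank 65 in Cu-NPs EC50 7d minus 3d (0.5363, E1A spike-ins). Replicate numbers did not pair the arrays (mean r of deviations -0.0103 for the same number and 0.00515 for others, with 18 of 54 arrays closest to their own number). With the replicate block there were 1, 39, 40 and 1 members (49, 4068, 2160 and 395 of all kept probes) in the F-tests. There were 79, 13, 12 and 19 (3216, 488, 975 and 4198) in the contrasts.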
